A study of Mus musculus with 212 samples.

Results

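Actb encodes beta-actin, a cytoskeletal actin. It was followed with its single TaqMan assay in mouse cells of the cardiac lineages, as 1 of the 33 genes that 42 assays covered. Actb was chosen by its measured level, which differed between stages and cell types in these same data, so the levels and their differences are a description and carry no test. The deposited values are quantification cycles (Ct). Expression is 25 minus Ct, in cycles above the detection limit. Each cycle doubles the product if PCR is fully efficient, and an undetected assay reads 0.

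Actin monomers assemble into the filaments that shape the cell cortex, stress fibres and protrusions, and beta-actin supplies much of this network in motile and dividing cells. Cardiomyocytes also build sarcomeres, whose thin filaments are made of the muscle alpha-actins, with cardiac troponins on the filament, myosin heavy and light chains pulling on it and alpha-actinin 2 anchoring it at the Z disc. Because nearly every cell makes beta-actin, its transcript is widely used to scale qPCR data. Actb was the 1 actin gene among the assays, so no muscle actin was measured beside it. The assay's sequence is not given in the sources used here, so the part of the transcript it reads, and any reading of gene copies of like sequence, are not known.

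Cells were lysed and reverse transcribed singly, pre-amplified and read on microfluidic chips. Each set of cells keeps its table and cell name, with D read as a day of ES cell culture, E as an embryonic day and Neo as neonatal. There were 24 D5-D8 cells, 20 D23-D29 cells, 24 E7.5-E10.5 cells and 72 cells in a separate E10.5 table. An atrial and a ventricular table held 15 cells each, and 30 reference cells were named CM, CPC, ES, SMC, EDC and FB, with 5 cells a name. The sample titles contradict the table names for the D5-D8, D23-D29 and E7.5-E10.5 cells, which are titled with another origin or stage. The sources used here name no genotype, strain, age in days or treatment. No animal or culture is named, so each set is 1 sample, the SD is the spread between cells, and no p-value was computed. Of the 200 cells, 192 were distinct, since 6 E10.5 cells stand in both E tables and 2 CM cells recur as D29 cells. Each was counted once in a comparison between sets and in values over distinct cells. Counts of sets, and of assay and set pairs, keep such a cell in both of its sets.

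Actb was detected in 191 of the 192 distinct cells, or 99.5% (lower end of the exact Clopper-Pearson 95% interval 97.1%, for counting error only). The exception was adult-ventricular-3, with 22 other detected assays and a mean of 13.52 cycles over the contractile assays. None of the 41 other assays was detected in 90% of the distinct cells, and Hand2 and Pou5f1 came next at 88.5%. Actb read 18.83 cycles in the positive control of 5 tables and 18.20 in that of the D23-D29 table, and 0 in all negative controls. The value was the same in all 5 tables to every digit given (18.8299), so these cannot be taken as 5 separate readings. They do not show that the tables are comparable. The E10.5 table holds no control. All 5 CM cells detected Tnnt2-1 and Myh6-1, and all 5 EDC cells Cdh5. Of the mesenchymal assays the FB cells had Vim (7.20 to 9.45) and Fn1 (7.61 to 9.14), and Pdgfra was at 0 in all 5.

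The Actb level was highest in D5 cells, at 12.66 ± 0.46 (SD, n = 6), ahead of D6 at 11.57 ± 1.58 (n = 6), CPC at 11.53 ± 0.69 (n = 5), E7.5 at 11.50 ± 0.72 (n = 6) and E8.5 at 11.28 ± 0.93 (n = 6). SMC at 10.27 ± 0.64, ES at 9.90 ± 0.48 and FB at 9.86 ± 0.53 followed (n = 5 each). Sets with low contractile assays in all cells, other than EDC, thus led the order together with D6 and E8.5. E9.5 had 8.87 ± 0.64 (n = 6), EDC 8.48 ± 0.98 (n = 5) and the 66 E10.5 cells outside the stage table averaged 8.37 ± 1.94. D7 at 8.19 ± 1.89 (n = 6), D8 at 7.09 ± 1.59 (n = 6), Neo-atrial cells at 6.83 ± 2.81 (n = 5) and the E10.5 cells of the stage table at 6.70 ± 1.06 (n = 6) filled the middle. Neo-atrial cells had the largest SD of all sets. The lower end held CM at 6.30 ± 0.56 (n = 5), D23 at 5.84 ± 0.81 and D29 at 5.62 ± 1.03 (n = 10 each). Adult-atrial cells stood at 4.96 ± 1.23 (n = 10), Neo-ventricular cells at 4.91 ± 0.76 (n = 5) and Adult-ventricular cells at 4.6 ± 2.34 (n = 10). Between neighbours in this order the difference passed the larger of their SDs at 2 places, E8.5 above SMC (by 1.01 cycles) and FB above E9.5 (by 0.99). The ranges of cells overlapped between all neighbours.

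**Figure D1:**
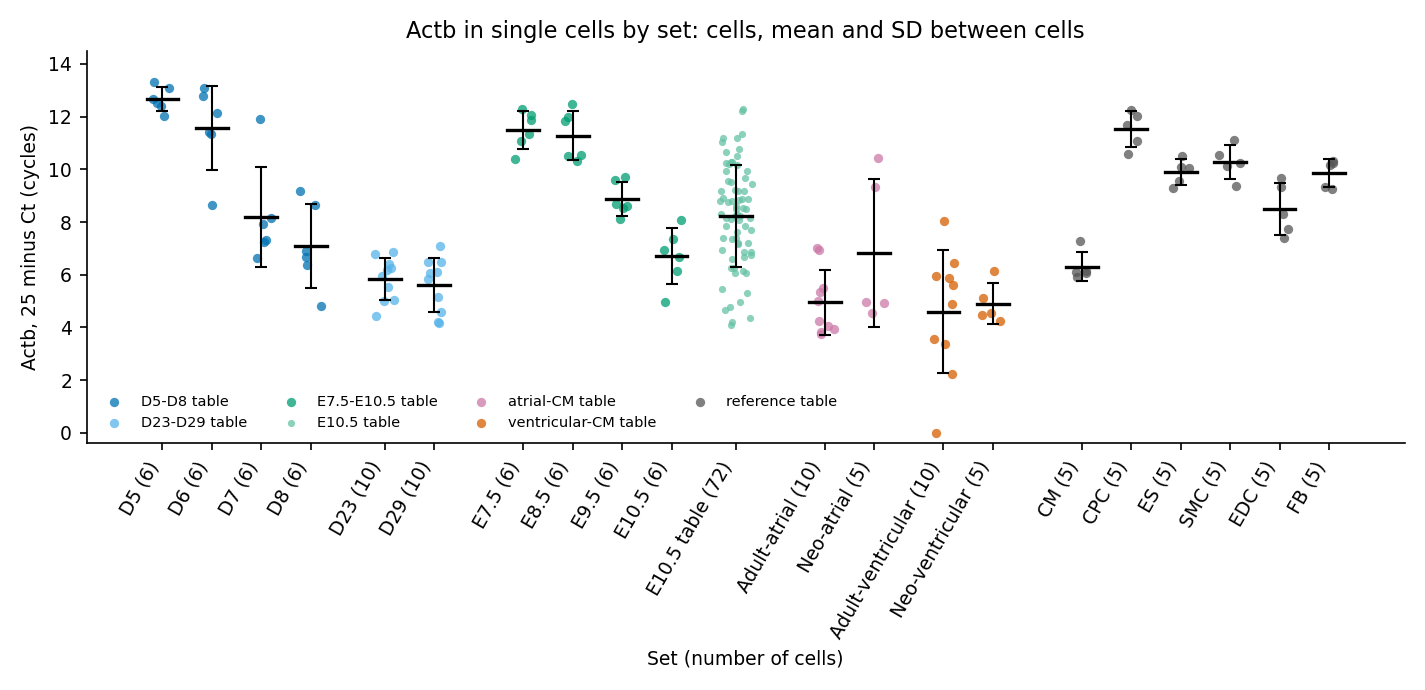
Actb in every cell (points, coloured by table) in cycles above the detection limit, by set, with the mean (bar) and the SD between cells (whiskers); cells that occur in 2 sets are drawn in both. The D5 cells lie between 12.04 and 13.31, the D23 and D29 cells between 4.16 and 7.08, and 1 Adult-ventricular cell lies at 0.

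Over the culture days Actb was lower on later days, and most of the difference lay between D6 and D7. D5 cells had a lowest, median and highest value of 12.04, 12.59 and 13.31 cycles, D6 cells 8.66, 11.76 and 13.07, D7 cells 6.63, 7.62 and 11.89, and D8 cells 4.80, 6.78 and 9.16. The D8 and D5 cells did not overlap, and the D7 and D6 ranges did. The mean difference was -1.10 cycles for D6 against D5, -3.38 for D7 against D6 and -1.10 for D8 against D7. Without D6-6, the lowest D6 cell, D6 differed from D5 by -0.51, and without D7-1, the highest D7 cell, D8 differed from D7 by -0.36. Over the whole course D8 stood 5.57 cycles below D5, which is 47.5-fold at full efficiency.

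The share of all 42 assays that were at least 1 cycle lower was 19% in D6 against D5, 23.8% in D7 against D6, 14.3% in D8 against D7 and 26.2% in D8 against D5. The rule for choosing Actb used these contrasts, so its place among those assays is not read as a result. The median difference of all assays between D8 and D5 was 1.15 cycles. Of all assays, 50% were at least 1 cycle higher on D8 than on D5, and so were all 10 contractile assays, with a median difference of 7.76. Tnnt2-1, which reads cardiac troponin T, averaged 11.18 ± 1.09 on D8 and 0.85 ± 2.09 on D5. All 3 mesenchymal assays were lower by more than 1 cycle: Vim, the intermediate filament vimentin, averaged 7.40 ± 1.13 on D8 and 11.47 ± 0.95 on D5, and Fn1, the matrix protein fibronectin, averaged 4.43 ± 2.68 on D8 and 9.98 ± 0.73 on D5. Among the actin-binding and smooth muscle assays Sm22A, an actin-bundling protein, was lower by 6.0 and Cnn2, a calponin, by 1.55, while Cnn1 was higher by 2.45 (SD, n = 6 each). The pluripotency assays had 0 higher and 1 lower of 2, the endothelial assays 0 and 2 of 4, and the progenitor factors 9 and 2 of 12.

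Later culture cells stood lower again, across tables. D23-D29 cells averaged 5.73 ± 0.91 (n = 20) and D8 cells 7.09 ± 1.59 (n = 6), a difference of -1.36 cycles. The ranges overlapped, and the share of assays lower by at least 1 cycle was 45.2%. Relative to the positive control of each table the difference was -0.74, which rests on a single control value in each. D29 against D23 differed by -0.23, within either SD.

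In the embryo the larger differences lay after E8.5, and the stage sets differed in cell make-up. E7.5-4, E7.5-5 and E7.5-6 detected the endothelial assay Cdh5 at 9.69, 8.89 and 9.27 cycles, and E8.5-1 and E8.5-2 at 12.12 and 11.43. No E9.5 or E10.5 cell of that table detected it, so the stages are not a course of 1 cell type. E7.5 cells had a lowest, median and highest value of 10.38, 11.60 and 12.29 cycles, E8.5 cells 10.33, 11.20 and 12.48, E9.5 cells 8.10, 8.64 and 9.70, and E10.5 cells of the same table had 4.98, 6.82 and 8.08. E8.5 against E7.5 differed by -0.22, less than either SD. E9.5 against E8.5 differed by -2.41 and E10.5 against E9.5 by -2.17, without overlap in either pair, beside 16.7% and 33.3% of assays at least 1 cycle lower. E10.5 stood 4.80 cycles below E7.5, or 27.9-fold at full efficiency, beside 21.4% of assays lower by at least 1 cycle. All 10 contractile assays, beside 52.4% of all assays, were at least 1 cycle higher at E8.5 than at E7.5, where Actb differed by less than the spread. The 66 cells of the E10.5 table that are not in the stage table gave another value, 8.37 ± 1.94 against 8.87 ± 0.64 at E9.5 (n = 6), a difference of -0.50 with overlapping ranges. The size of the difference from E9.5 to E10.5 thus varied between the E10.5 samplings, which also differed in make-up. All 6 stage-table E10.5 cells and all 6 E9.5 cells averaged over 5 cycles across the contractile assays. Of the 66 other cells 16 averaged under 5, with Actb at 10.69 ± 0.82.

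The reference cells placed Actb by cell type. CM cells had 6.09, 6.06, 7.28, 5.93 and 6.14 cycles, and CPC cells 11.70, 10.58, 11.08, 12.25 and 12.02. All CM cells lay more than 3 cycles below every CPC cell, and the means differed by -5.23, or 37.4-fold at full efficiency. Of all assays, 40.5% were at least 1 cycle lower in CM than in CPC cells, among them 3 of 3 mesenchymal and 3 of 4 actin-binding and smooth muscle assays. CPC cells stood 1.63 above ES cells without overlap, beside 35.7% of assays at least 1 cycle higher. SMC cells, in which the smooth muscle assays Myh11, Sm22A and Cnn1 averaged 11.75, 11.91 and 10.08 cycles, differed from FB cells by 0.41 in Actb, less than either SD. EDC cells stood 1.38 below FB cells with overlapping ranges, beside 16.7% of assays lower.

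Between ages and chambers Actb differed by less than the larger SD of each pair. Adult-atrial cells had a lowest, median and highest value of 3.74, 4.62 and 7.02 cycles, and Neo-atrial cells had 9.32, 4.91, 4.96, 4.54 and 10.44. The means differed by -1.88, beside 35.7% of assays lower by at least 1 cycle, and without Neo-atrial-5 by -0.98. The medians differed by -0.33. Neo-atrial-1 and Neo-atrial-5, the high pair, had Vim at 9.30 and 13.80, Fn1 at 3.8 and 11.43 and Pdgfra at 4.21 and 9.19, while the 3 low cells had Vim at 4.90 to 7.18, Fn1 at 0 to 2.36 and Pdgfra at 0. All 5 had contractile means of 8.19 to 9.45, so the high pair carried the contractile assays too. The part of other cells in these Actb values was not tested. Neo-atrial against Neo-ventricular cells differed by 1.93, less than the atrial SD of 2.81, beside 35.7% of assays higher by at least 1 cycle. The difference was 1.03 at the lowest when 1 cell was left out, and 0.41 between medians.

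Adult-ventricular cells had the widest range of the heart sets, at 2.22, 6.44, 0, 8.04, 4.90, 3.55, 3.39, 5.95, 5.87 and 5.59 cycles, against Neo-ventricular cells at 6.15, 4.47, 5.12, 4.55 and 4.24. The adult cells stood on both sides of the neonatal ones. The means differed by -0.31, by 0.20 without the cell at 0, and the medians by 0.70. Adult-atrial against Adult-ventricular cells differed by 0.36, by -0.15 without that cell and by -0.62 between medians, so neither pair has a settled direction.

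Actb also differed between sets relative to the other assays of the same cell. A cell's own yardstick is the median of its other detected assays. D5 cells had Actb 5.68 ± 0.46 cycles above that median, D6 cells 5.10 ± 2.19, D7 cells 1.88 ± 2.53 and D8 cells -0.15 ± 0.95 (SD, n = 6 each). The median itself differed by 0.25 cycles between D8 and D5. The embryo gave 5.63 ± 1.14 at E7.5, 4.08 ± 1.5 at E8.5, 0.25 ± 0.67 at E9.5 and -1.03 ± 1.36 at E10.5 (n = 6 each). On this scale E8.5 cells already stood 1.56 below E7.5 cells, since their median detected assay was 1.34 higher. CM cells had -0.70 ± 1.07 and CPC cells 5.29 ± 1.03 (n = 5 each). Adult-atrial cells had -3.19 ± 1.45 (n = 10), and the 9 Adult-ventricular cells that detected Actb -2.72 ± 2.10, a mean that leaves out adult-ventricular-3.

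The rank of Actb within a cell restates the same Actb values in another form and is no separate support. Assays differ in efficiency, so a rank is read here between cells and not as more transcripts of 1 gene than of another. Actb was the strongest of all assays in 28 distinct cells. These were 6 of 6 E7.5 cells, 5 of 5 ES cells, 5 of 5 FB cells, 4 of 6 D5 cells, 4 of 6 D6 cells, 2 of 6 E8.5 cells, 1 D7 cell and 1 CPC cell. It led in 0 cells of every other set. The median and the rank both depend on which assays a cell detects, and these differ between sets. The mean number of other detected assays was 7.2 in ES, 9.4 in FB, 21 in CM and 28.5 in E9.5 cells.

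Cells fell into separate clouds by their contractile mean, which is the average of 10 assays of troponins, myosins and alpha-actinin 2. No cell had a contractile mean between 3.36 and 5.75 cycles, so a limit of 5 cycles, chosen after the values were seen, divides the distinct cells into 131 above it and 61 below it. Actb was 6.83 ± 1.98 (n = 131) above the limit and 10.87 ± 1.31 (n = 61) below it. The ranges overlapped: 50 of the 131 cells above the limit were at or over the lowest Actb of the cells below it, 7.40 in an EDC cell. In the D5-D8 table they did not overlap, at 4.80 to 9.16 in the 12 cells above the limit and 11.36 to 13.31 in the 12 cells below it.

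D6-6 and D7-1 were out of step with their day. D6-6 had Myh6-1 (alpha myosin heavy chain) at 12.40, a contractile mean of 10.52 and Actb at 8.66, while the other D6 cells had contractile means of 0.52 to 2.25 and Actb at 11.36 to 13.07. D7-1 had no Myh6-1 signal, a contractile mean of 0.95 and Actb at 11.89, while the other D7 cells had 7.70 to 9.35 and Actb at 6.63 to 8.15. Each cell's Actb lay with the cells of its contractile level and away from the cells of its day. In culture, Actb within a contractile class differed less between days than between classes. Above the limit it was 8.66 in 1 D6 cell, 7.45 ± 0.60 in 5 D7 cells and 7.09 ± 1.59 in 6 D8 cells. Below it, Actb was 12.66 ± 0.46 in 6 D5 cells, 12.15 ± 0.78 in 5 D6 cells and 11.89 in 1 D7 cell.

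Embryo cells differed from this. E8.5 cells above the limit had Actb at 10.84 ± 0.76 (n = 4), with a contractile mean of at least 7.19, and the 2 below it had 11.85 and 12.48. Above the limit in the stage table, the means were 10.84 at E8.5, 8.87 at E9.5 and 6.70 at E10.5, with no overlap between these stages. The 56 cells above the limit in the E10.5 table include the 6 of the stage table. They averaged 7.53 ± 1.54 and ran between 4.08 and 10.19, which spans the whole E9.5 range of 8.10 to 9.70. So at E8.5 the contractile assays were high in cells with Actb above 10 cycles, which no D6, D7 or D8 cell above the limit reached.

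**Figure D2:**
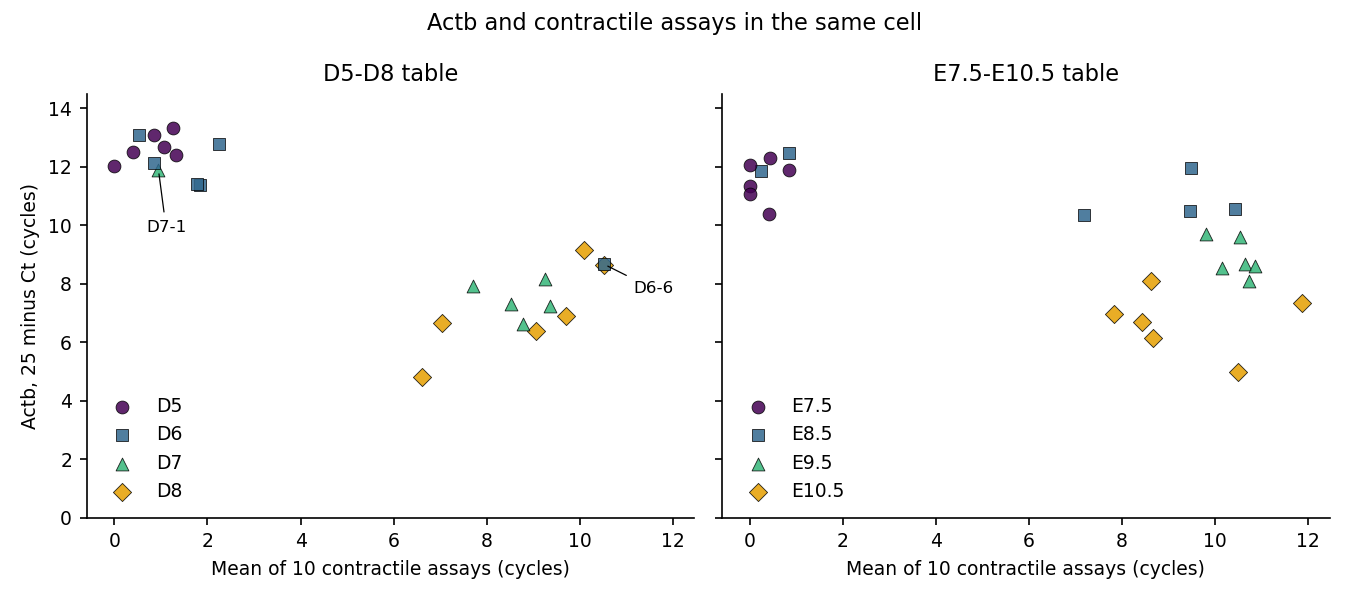
Actb against the mean of the 10 contractile assays in the same cell, both in cycles above the detection limit, for the D5-D8 table (left) and the E7.5-E10.5 table (right), with markers by day or stage. D6-6 (Actb 8.66) lies with the D7 and D8 cells and D7-1 (11.89) with the D5 and D6 cells, while the 4 E8.5 cells of high contractile mean lie above 10.

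Across cells the relation between Actb and the contractile assays was negative in the D5-D8, E7.5-E10.5 and E10.5 tables with both clouds pooled, and its size or sign differed within the clouds. These correlations are descriptions, as cells of a set share a sample and a chip, and the assays of a cell share its cDNA. In the D5-D8 table Pearson's r between Actb and the contractile mean was -0.86 and Spearman's rho -0.69 over 24 cells. Within the 12 cells above the limit r was 0.74 (rho 0.69), and within the 12 below it -0.21 (rho -0.19). The 72 cells of the E10.5 table gave r of -0.55 (rho -0.24), with 0.46 (rho 0.55) within the 56 above the limit and 0.54 (rho 0.55) within the 16 below it. The E7.5-E10.5 cells gave -0.68 over 24 cells and -0.02 within the 16 above the limit. The negative values over whole tables thus stand beside positive or near-0 values among the cells of high contractile mean.

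The number of detected assays followed the same course. For the detected assays other than Actb, r was -0.68 over the D5-D8 cells (n = 24), -0.57 over the E7.5-E10.5 cells (n = 24) and -0.35 over the 72 cells of the E10.5 table. Within the cells of contractile mean over 5 it was 0.68 (n = 12), 0.38 (n = 16) and 0.62 (n = 56). Over all distinct cells it was -0.28, and within the 131 cells above the limit 0.67. In that cloud the median detected assay also ran with Actb, with r of 0.68 for D5-D8 and 0.67 for the E10.5 table, and 0.05 for E7.5-E10.5. The part of cDNA yield per cell in these values was not tested.

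The mesenchymal mean had a positive r with Actb in most tables and classes, but Vim alone did not in the E7.5-E10.5 cells. The mesenchymal mean (Vim, Fn1 and the receptor Pdgfra) had r of 0.81 and rho of 0.83 with Actb over all 192 distinct cells, and 0.64 with set means removed. In the D5-D8 table r was 0.90 over 24 cells and 0.53 and 0.54 above and below the limit. In the E10.5 table it was 0.81 over 72 cells, 0.65 above and 0.50 below the limit. The E7.5-E10.5 cells gave 0.50 over 24 cells, 0.75 above the limit and 0.05 in the 8 cells below it. Vim there had r of -0.10 over 24 cells (0.19 over those that detected it), -0.28 above the limit and -0.12 below it, while Fn1 had 0.74 over 24 cells. In the D23-D29 table, with Actb between 4.16 and 7.08, it was -0.03 over 20 cells, and in the ventricular table it was 0.34 over 15. The atrial value was 0.80 with a rho of 0.42, and 5 of those 15 cells, all neonatal, detected any mesenchymal assay.

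Over the means of 21 sets, with the 66 other E10.5 cells as a set, the assays most like Actb were Fn1 (r 0.93), Vim (0.74), Cnn2 (0.67), Kit-1 (0.64) and Sm22A (0.63). The most opposed were Tnni3-2 and Tnni3-1, both cardiac troponin I (-0.86 each), Myh6-1 (-0.85), Myh6-2 (-0.84) and Actn2 (-0.81). Over the 192 distinct cells Fn1 led at 0.83, before Vim (0.67), Cnn2 (0.52), Pdgfra (0.48) and Sm22A (0.45). The same 5 contractile assays were lowest there, between -0.73 and -0.66. The lists differ in 1 name at the top, as Kit-1, a receptor assay, gave way to Pdgfra.

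Within single sets the signs were mixed for the contractile mean. Of 19 sets in which it varied, 10 had a positive r with Actb and 9 a negative one, between -0.95 in D7 and 0.97 in Neo-ventricular cells, with a median of 0.13. D6 (-0.91) and D7 (-0.95) each include the 1 cell that was out of step. The mesenchymal mean was positive in 15 of 20 sets, with a median of 0.48, and the number of detected assays in 14 of 21, with a median of 0.25. Most of these sets hold 5 to 10 cells, so a single cell weighs heavily.

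**Figure D3:**
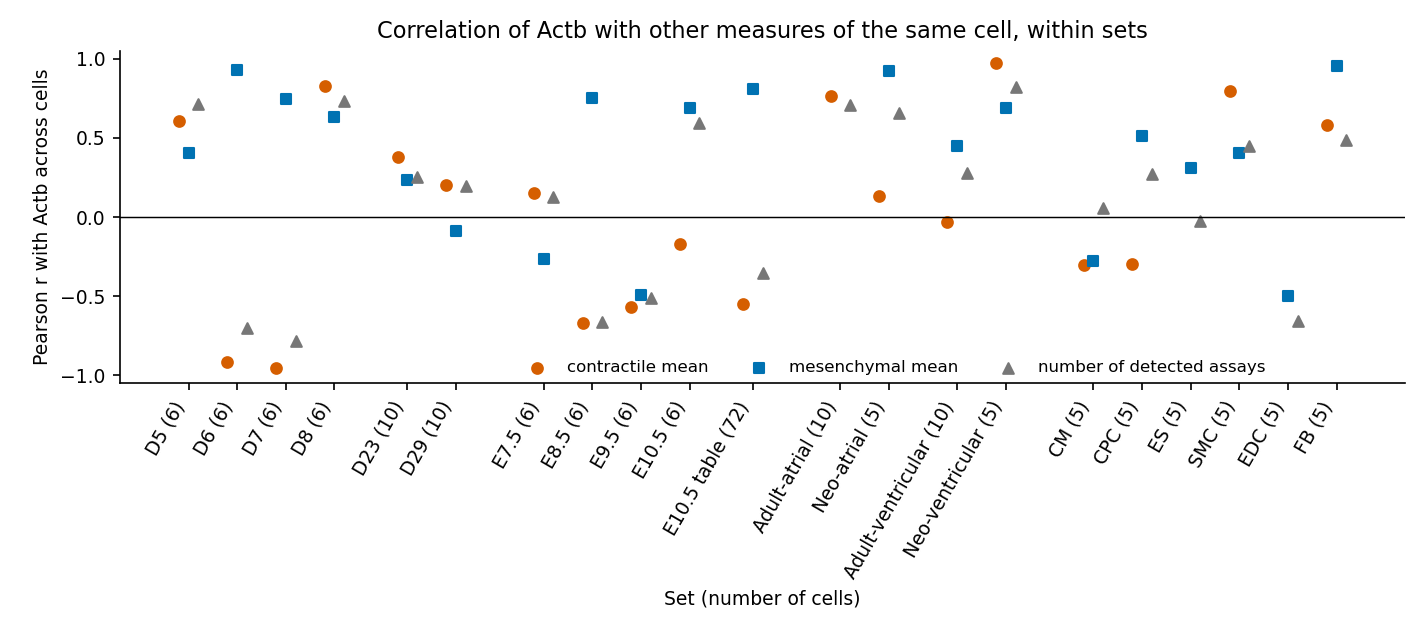
Pearson's r across cells between Actb and the contractile mean (circles), the mesenchymal mean (squares) and the number of other detected assays (triangles) within each set; no point is drawn where a measure did not vary. Contractile values run from -0.95 in D7 to 0.97 in Neo-ventricular cells, and 15 of 20 mesenchymal values lie above 0.

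The E10.5 table, with 72 cells the largest, showed Actb between 4.08 and 12.27 cycles with a median of 8.30. Vim was detected in all 72 cells, so its relation to Actb rests on no undetected value, and r was 0.84 (rho 0.85). Within the 56 cells above the contractile limit it was 0.70 (rho 0.71). Fn1 gave 0.83 (rho 0.83) over all cells, and 0.70 above the limit. The 5 cells without Fn1 had Actb of at most 6.86. E10.5-46, the cell with the lowest Actb (4.08), had Vim at 9.14, no Fn1 and Tnnt2-1 at 11.08, and E10.5-18, the cell with the highest (12.27), had Vim at 12.59, Fn1 at 10.95 and Tnnt2-1 at 8.27.

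Classes of these cells made from other assays differed in Actb. The 60 cells with Actn2 averaged 7.76 ± 1.75 and the 12 without it 10.58 ± 0.70 (SD between cells), and 6 of the 60 were at or over 9.57, the lowest value of the 12. Vim averaged 9.45 ± 1.14 in cells with Actn2 and 11.94 ± 0.90 in cells without it, and Fn1 averaged 5.63 ± 2.51 in cells with Actn2 and 10.18 ± 1.35 in cells without it. Both mesenchymal assays were thus higher in the class with the higher Actb. The 67 cells with Tnnt2-1 averaged 8.09 ± 1.92 and the 5 without it 10.16 ± 0.44. The 59 cells with Myl2, the ventricular light chain, averaged 7.90 ± 1.79 and the 13 without it 9.73 ± 1.91, with wide overlap. Cells with Cdh5, the endothelial VE-cadherin, averaged 10.18 ± 0.96 (n = 12) and cells without it 7.84 ± 1.84 (n = 60). The contractile mean was 3.04 cycles in cells with Cdh5 and 9.57 in cells without it. In the reference table the EDC cells, all 5 of which detected Cdh5 (7.52 to 9.96 cycles), had Actb at 7.40 to 9.66.

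**Figure D4:**
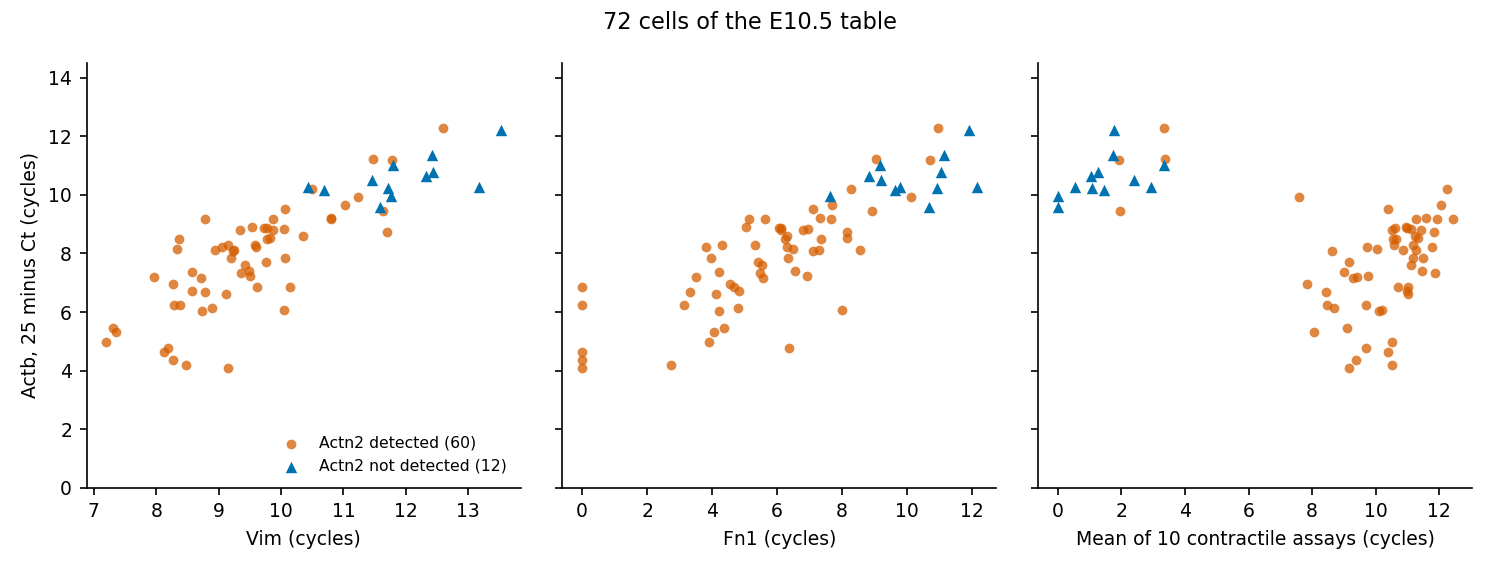
Actb against Vim, Fn1 and the mean of the 10 contractile assays in the 72 cells of the E10.5 table, all in cycles above the detection limit, with the 60 cells that detected Actn2 as circles and the 12 that did not as triangles. Actb is higher where Vim and Fn1 are higher (r 0.84 and 0.83), and the contractile panel shows separate clouds, with r of 0.46 within the high one.

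As a reference gene Actb reduced the spread between cells of a set for a minority of assays. For assays detected in every cell of a set, the SD between cells was compared after subtracting the cell's Actb and as measured. It was smaller after subtraction for 81 of 221 assay and set pairs, or 36.7%, and for 94 of 221, or 42.5%, when the median of the other detected assays was subtracted. The median SD of a set was smaller after Actb was subtracted in 8 of 21 sets, and in 6 of 21 with the median. The SD was smaller for 6 of 6 assays in FB cells, 7 of 8 in SMC, 16 of 19 in Neo-ventricular, 13 of 15 in D8 and 5 of 6 in D5 cells. With the median absolute deviation as the spread these counts were 3 in FB, 4 in SMC, 9 in Neo-ventricular, 9 in D8 and 4 in D5 cells, so the order of the sets depends on the measure of spread. The SD was smaller for 0 of 12 assays in Adult-ventricular, 0 of 10 in D29 and 0 of 8 in EDC cells, 1 of 16 in CM and 3 of 21 in Neo-atrial cells. The median absolute deviation was smaller for 6 in Adult-ventricular, 1 in D29, 3 in EDC, 5 in CM and 3 in Neo-atrial cells. Over all sets it was smaller for 85 of 221 pairs. The Adult-ventricular figure rests on the 9 cells that detected Actb.

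Gains differed between kinds of assay. Vim had a smaller SD after subtraction in 11 of the 14 sets where every cell detected it, and the mesenchymal list in 17 of 27 pairs (63%). The actin-binding and smooth muscle list gained in 13 of 25 pairs (52%). The contractile list gained in 21 of 82 pairs (25.6%), where the median SD was 1.27 cycles after subtraction and 0.90 as measured. Tnnt2-1 gained in 2 of 11 sets. In Neo-atrial cells its SD was 2.79 after subtraction and 0.41 as measured, and Actb itself had an SD of 2.81 there. In Neo-ventricular cells, where Actb varied by 0.76, it was 0.31 after subtraction and 0.72 as measured.

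**Figure D5:**
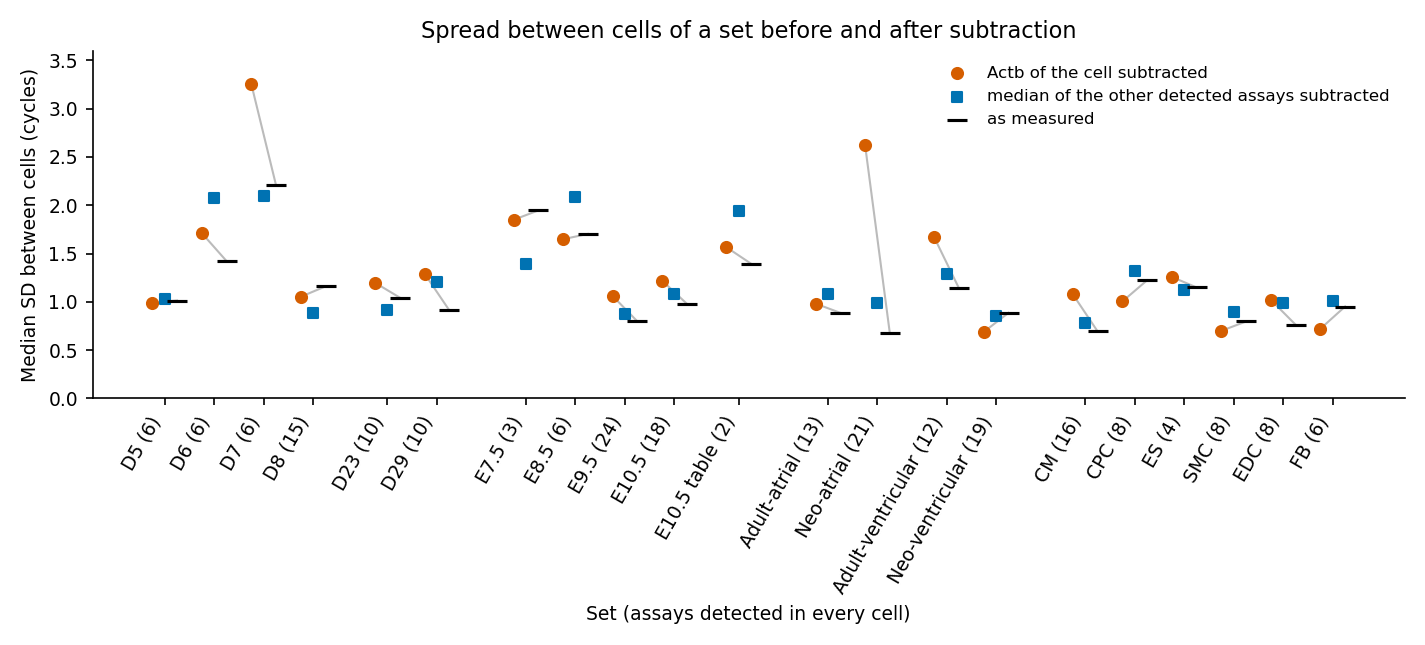
Median SD between cells, in cycles, over the assays detected in every cell of a set (number in brackets), after subtracting Actb of the cell (circles), after subtracting the median of the other detected assays (squares) and as measured (dashes), with a line joining the Actb value to the measured one. Neo-atrial cells stand at 2.63 after subtraction of Actb and 0.68 as measured, and FB cells at 0.72 and 0.95.

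Between sets Actb lay near the middle of the assays in steadiness. Its set means had an SD of 2.53 cycles over 21 sets and a range of 8.07, and 20 of the 41 other assays had a smaller SD of set means while 21 had a larger one. A smaller SD there can mean an assay that is near 0 in most sets. Hand2, Pou5f1 and Cnn2, the assays with the next highest detection, named after their values were seen, had SDs of set means of 1.91, 1.88 and 2.42. Within sets, leaving out the E10.5 table, the pooled SD of Actb was 1.30, against 1.83 for Hand2, 1.5 for Pou5f1 and 2.14 for Cnn2. These SDs count undetected cells as 0, and such cells are rarer for Actb. Where every cell of a set detected the assay (13 sets each), the median SD was 1.03 for Hand2, 0.82 for Pou5f1 and 1.07 for Cnn2. The SD of Actb within a set ran from 0.46 in D5 to 2.81 in Neo-atrial cells, and no median over the same sets was taken for it. The pooled SDs thus do not show Actb as the steadier assay, and these medians do not show it as the less steady one.

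Subtracting Actb moves an assay detected in every cell compared by the difference of Actb itself. Undetected values take the lowest scaled value, so an assay missing in some cells moves by another amount. Counts on that scale restate the difference for which Actb was chosen, mixed with this rule for undetected values. They are given only to show the size of that shift. For the 41 other assays, D8 against D5 gave 26 that stood higher by 1 cycle or more and 4 that stood lower on the scale relative to Actb, with 21 and 10 as measured. Vim (1.5 relative to Actb and -4.07 as measured) and Cnn2 (4.02 and -1.55) turned sign. E10.5 against E9.5 gave 18 higher and 6 lower relative to Actb, against 1 and 13 as measured, and Cnn1 and Fn1 turned, each to 1.01 from a measured -1.16. At a step of 2 cycles 6 were higher and 4 lower relative to Actb. The other 66 E10.5 cells against E9.5, where Actb differed by -0.50, gave 5 higher and 22 lower relative to Actb, against 4 and 24 as measured. In CM against CPC cells 20 were higher and 12 lower relative to Actb, against 13 and 16, and Hand1 and Hand2, transcription factors of cardiac progenitors, turned sign. D7 against D6 gave 23 higher and 3 lower relative to Actb, against 15 and 9 as measured, with Gata4-2 and Pou5f1 turned. Adult-atrial against Neo-atrial cells gave 13 higher and 13 lower relative to Actb, against 3 and 14 as measured. Relative to the median detected assay they gave 1 higher and 22 lower, and at a step of 2 cycles 7 higher and 6 lower relative to Actb. E8.5 against E7.5, where Actb differed by -0.22, gave 22 higher and 6 lower on both scales, with 1 assay passing the 1-cycle step on the scale relative to Actb alone and 1 as measured alone. The median shift of the assays relative to Actb was 2.84 cycles for D8 against D5, 3.21 for E10.5 against E7.5 and 2.15 for CM against CPC cells. Actb itself differed by -5.57, -4.80 and -5.23 there, and the median shift is smaller in size because it includes assays with undetected values.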

How the data were processed

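Per the labels' protocols, sorted single cells were lysed and their RNA was reverse transcribed directly, and the cDNA was pre-amplified before TaqMan reactions on Fluidigm chips in a BioMark instrument. The authors deposited Ct values for 42 assays in 7 tables, where no value exceeds 25 and a missing signal stands at 25. The labels record no scaling and no removal of cells. How the Ct threshold was set is not given in the sources used here. A low transcript and an absent one both read 25.

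Expression was computed as 25 minus Ct, with undetected as 0. Means, SDs, differences, Pearson and Spearman correlations and SDs after subtraction were computed in Python 3.11.15 with pandas 2.3.3 and scipy 1.17.1. Differences, Pearson correlations, the removal of set means and SDs after subtraction of Actb were tested on simulated data without undetected values. That test did not cover the handling of undetected values, the cell's median, the median absolute deviation, Spearman's rho or the check for outlying cells. A difference of at least 1 cycle was counted. On scaling to Actb, undetected values took the lowest scaled value of the cells compared. With 5 to 72 cells in a set, cell number limits precision. Actb, the comparisons and the assay lists (10 contractile, 3 mesenchymal, 4 actin-binding and smooth muscle, 4 endothelial, 2 pluripotency, 12 progenitor assays) were chosen with earlier results of these data known. Other assays are named as list members, as the 5 most and least correlated with Actb over set means and over cells, or as noted. Alternatives were medians, stricter limits, left-out cells, Spearman's rho, set means removed and scaling to the cell's median. Splits by contractile mean, Actn2 or Myh6-1, values relative to the positive control, and leaving out repeated cells were added after the data were seen. Control columns (12) were not used as cells.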

Additional observations from a re-analysis of the deposited data

Results flagged for a closer look

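In 20 sets of 4 to 10 cells the highest and lowest Actb values were compared with the next cell, and 2 cells stood apart from the rest of their set by more than Dixon's 95% criterion allows. Chance alone gives about 1 such set in 20. D7-1 had Actb at 11.89 cycles, against 8.15 in the next highest D7 cell, a gap of 0.71 of the set's range. It had a contractile mean of 0.95, a mesenchymal mean of 9.51 and no Myh6-1 signal. CM-3 had Actb at 7.28, against 6.14 in the next highest CM cell, a gap of 0.84 of the range. CM-3 had a contractile mean of 8.91 and a mesenchymal mean of 1.98, both within the range of the other CM cells.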

How the results depend on the processing

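Of 428 alternative values, 66 for main results and 253 for the others moved by less than the spread between cells or, for counts and correlations, less than a set step. Among main results 19 moved further and 8 reversed, and among the others 74 and 8. Some alternatives could not move a value. Within a table the positive control cancels, and where all cells detected Actb none was left out as undetected. The spread between cells is wide, and among the values that moved by less than it 9 differences of Actb still changed sign. They belong to D29 against D23 (0.30 relative to the cell's median), the 66 E10.5 cells against E9.5 (0.23) and both comparisons of Adult-ventricular cells (0.20 to 0.70, and -0.62 to -0.15), with main values of at most 0.50 in size. SMC against FB was 0.41 as measured and -1.36 relative to the cell's median. No difference of Actb between D8 and D5, E10.5 and E7.5 or CM and CPC changed sign under any alternative run. The ranges of these pairs did not overlap, so medians and left-out cells could not change the sign. Actb was also chosen for such differences, so the unchanged signs are no support for them. Leaving out each cell in turn gave -5.99 to -5.11 for D8 against D5, -5.08 to -4.46 for E10.5 against E7.5 and -5.47 to -5.05 for CM against CPC. Relative to the cell's median detected assay, E10.5 against E7.5 was -6.66 and CM against CPC -5.98. Leave-one-out values lay between -1.82 and -0.95 for D23-D29 against D8 and between -2.45 and -0.98 for Adult-atrial against Neo-atrial. Between medians these were -0.77 and -0.33.

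Correlations depended most on the cells taken, and the cause was not tested. In the E10.5 table the contractile r of -0.55 was -0.24 as rho, -0.81 with both measures relative to the cell's median, -0.23 in cells with Actn2, and 0.46 and 0.54 above and below the contractile limit. The mesenchymal r was 0.50 below the limit. The r with detected assays was 0.62 above the limit, 0.27 below it and 0.081 in cells with Actn2. In the D5-D8 table the contractile r of -0.86 was -0.57 with set means removed, -0.30 in cells with Myh6-1, 0.74 above and -0.21 below the limit. The mesenchymal r of 0.90 was 0.69, 0.68, 0.53 and 0.54 in the same order. The r with detected assays, -0.68, was -0.26, 0.00039, 0.68 and -0.24. Above and below the limit, Actn2 alone gave 0.061 and 0.49 in the E10.5 table, and 0.71 above it in the D5-D8 table. Among E7.5-E10.5 cells the contractile r was 0.37, Actn2 0.37 and Fn1 -0.20 below the limit, and that of detected assays 0.38 above and 0.15 below it.

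Relative to the median detected assay in place of Actb, 10 assays were lower in D8 than in D5 and 10 in E10.5 than in E7.5. A step of 2 cycles gave 2 and 3 with Actb. No paired analysis was possible because the sets share no animal or culture number and no result comes from a test. Limits are the few cells per set, the missing controls of the E10.5 table, the detection limit at Ct 25 and the unknown animals and cultures.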
